A study of Capra hircus with 3 samples.

Results

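Transcript levels of 5 genes of the growth hormone, insulin-like growth factor (IGF) and PAPPA axis were followed across the cell types of goat liver. The genes are PAPPA, IGFBP2, IGF1, IGFBP1 and GHR, and they are 5 of the 27271 genes in the deposited matrices, found there by symbol. In the RefSeq table of assembly ARS1.2 IGFBP1 lies next to IGFBP3 and IGFBP2 next to IGFBP5. The 5 genes were picked with their levels in these same cells already known, so every level and ratio below is a description and no test is attached to any of them. The cells came from 3 single-cell libraries, each a pool of livers from 5 female goats aged 3 to 4 years. NASH-T goats, which the submitters call tolerant of steatohepatitis, and NASH goats, with steatohepatitis, both ate the HRDS diet. Con goats ate the LRDS diet, so diet and disease state cannot be told apart when either is set against Con.

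Growth hormone from the pituitary acts on the liver through its receptor GHR and drives the secretion of IGF1, the main circulating growth factor of the axis. In blood and tissue IGF1 is held by binding proteins, among them IGFBP1, which insulin represses in liver, and IGFBP2. PAPPA is a secreted metalloprotease that cuts binding proteins, IGFBP4 in particular, and so frees IGF near its receptor. Hepatocytes are the main source of circulating IGF1, while the IGF receptor IGF1R sits mostly on other liver cells.

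Each group had 1 library, so no spread between goats or between libraries could be measured. Intervals are 95% intervals for counting error only (exact Poisson for levels, exact binomial for shares and for ratios). Levels are given as CPM, the number of unique molecular identifiers (UMIs) of a gene per 1000000 UMIs of all genes in the same cells of 1 library. After filtering, 8914 NASH-T, 8389 NASH and 7200 Con cells remained. Their median depth was 2127.5 UMIs in NASH-T, 2472 in NASH and 2392.5 in Con. Clusters were named from marker genes, and 3118 NASH-T, 4061 NASH and 2860 Con cells were hepatocyte-like, or 35.0%, 48.4% and 39.7% of cells. The hepatocyte-like cells of the NASH library stood apart. Of its 4061 cells, 1513 fell in a cluster led by FASN, which encodes fatty acid synthase, and 1289 in one led by CYP7A1, the rate-limiting enzyme of bile acid synthesis. These clusters held 45 and 47 NASH-T cells and 5 and 13 Con cells. The libraries shared 20 to 23 cell barcodes per pair.

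In hepatocyte-like cells the 5 genes spanned a wide range of levels, with GHR the highest and PAPPA the lowest in every library. GHR, the growth hormone receptor, had 9118 CPM in NASH-T, 7932 CPM in NASH and 6856 CPM in Con. IGFBP1 came next, with 2404 CPM in NASH-T, 2210.2 CPM in NASH and 2205 CPM in Con. IGF1 followed with 1029.6 CPM in NASH-T, 948 CPM in NASH and 842 CPM in Con. These are 3′ counts, and whether intronic reads were counted is not given. Levels of different genes are therefore set side by side only as read yields. IGFBP2 was lower in both groups on the HRDS diet than in Con. It had 77.6 CPM in NASH-T, 88.7 CPM in NASH and 171 CPM in Con. PAPPA stood apart in NASH, with 28.6 CPM in NASH-T, 0.807 CPM in NASH and 21.4 CPM in Con.

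**Figure D1:**
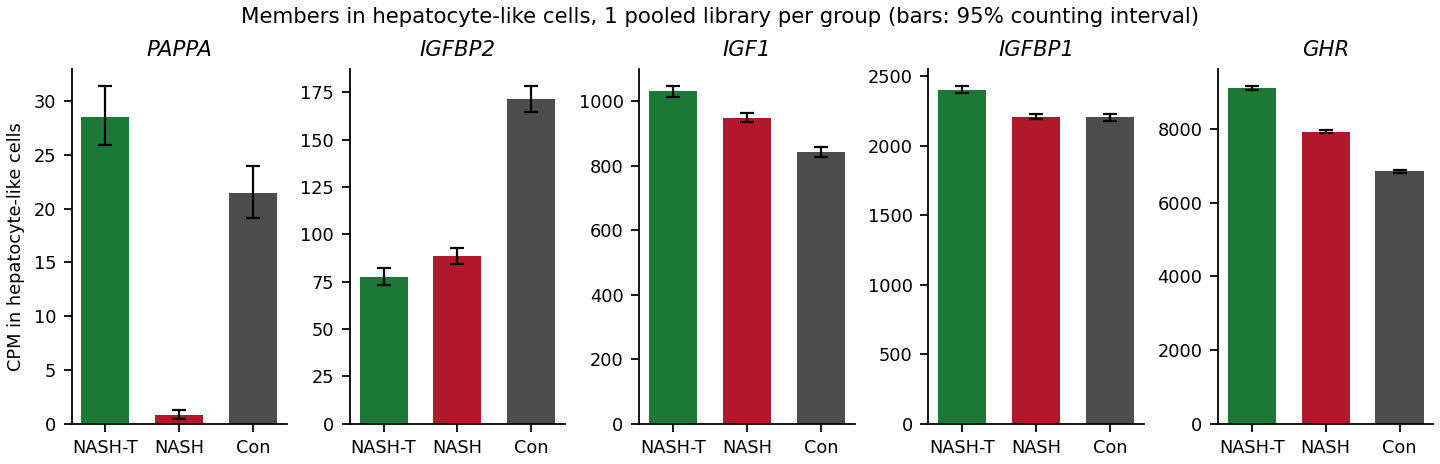
CPM of each gene in hepatocyte-like cells of the NASH-T, NASH and Con libraries, 1 panel per gene with its own axis from 0; error bars are 95% counting intervals of 1 pooled library each. PAPPA is at 28.6, 0.807 and 21.4 CPM, IGFBP2 at 77.6, 88.7 and 171 CPM, and GHR is highest in NASH-T at 9118 CPM.

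A ratio was counted as apart when it reached 1.5-fold in either direction and the gene had at least 50 UMIs over both libraries. By that measure 1 of the 5 genes was apart between NASH-T and Con, against 13.6% of the 11364 genes measured in hepatocyte-like cells. Between NASH and Con 2 of 5 were apart, against 17.4% of 11565 genes, and between NASH-T and NASH 1 of 5, against 13.6% of 11547 genes. Since the genes were picked on these levels, the counts carry no weight beyond the description. The median of all genes was shifted by -0.10 (log2) in NASH-T over Con and by -0.12 in NASH over Con. Scaling to that median moved the share of calls that were higher to 53.0%, against 36.6% unscaled, for NASH-T over Con, and to 48.1%, against 33.3%, for NASH over Con. Relative to the median gene the ratios of NASH-T over Con were 1.43 for PAPPA, 0.486 for IGFBP2, 1.31 for IGF1, 1.17 for IGFBP1 and 1.43 for GHR. Those of NASH over Con were 0.0408 for PAPPA, 0.561 for IGFBP2, 1.22 for IGF1, 1.09 for IGFBP1 and 1.25 for GHR, all on the same side of 1 as unscaled. The ratios that follow are unscaled.

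The ligand IGF1 (ENSCHIG00000018863) was slightly higher in both HRDS groups than in Con hepatocyte-like cells. It was counted 15644 times in NASH-T, 18802 times in NASH and 12055 times in Con. It differed between libraries by little, with ratios of 1.22 in NASH-T over Con, 1.13 in NASH over Con and 1.09 in NASH-T over NASH, all below 1.5-fold. At least 1 IGF1 UMI was present in 81.1% of NASH-T, 86.4% of NASH and 80.0% of Con hepatocyte-like cells. T cell-like cells served as the background class, and 3.46%, 3.94% and 3.31% of them held an IGF1 UMI. Hepatocyte-like cells were deeper, with medians of 4045.5, 3866 and 4208 UMIs in NASH-T, NASH and Con, against T cell-like medians of 1176, 1003 and 1157. With each cell thinned to 1000 UMIs the IGF1 shares were 56.4%, 57.7% and 50.3% in hepatocyte-like cells and 2.63%, 2.66% and 1.60% in T cell-like cells, so the gap between the classes remained at equal depth.

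Outside hepatocytes, IGF1 was lower than in hepatocyte-like cells in every class given here and rested on few molecules. In stellate-like cells, the vitamin A-storing pericytes of the sinusoid, it had 80.8 CPM in NASH-T, 117 CPM in NASH and 39.3 CPM in Con, from 52, 82 and 17 UMIs. In endothelial-like cells it had 78.4 CPM in NASH-T, 115 CPM in NASH and 29.1 CPM in Con, from 156, 110 and 21 UMIs. In both classes the level was higher in the HRDS groups than in Con, with ratios in stellate-like cells of 2.05 (1.17 to 3.79) for NASH-T over Con and 2.97 (1.74 to 5.33) for NASH over Con. In endothelial-like cells these were 2.70 (1.70 to 4.48) and 3.94 (2.46 to 6.62). T cell-like cells had 30.3, 39.9 and 27.5 CPM of IGF1, which the Con levels of both classes barely exceeded. With that level subtracted the ratios over Con were 4.28 for NASH-T and 6.50 for NASH in stellate-like cells and 30.7 and 47.9 in endothelial-like cells, set by a Con level near 0. A single stellate-like cell held 16 of the 52 UMIs in NASH-T and another 14 of the 82 in NASH. In endothelial-like cells of NASH 1 cell held 18 of the 110 UMIs, and without it the level was 97.3 CPM. The share of all genes past 1.5-fold in these classes is not given here. Keeping cells called as doublets brought the stellate ratio of NASH-T over Con to 1.05 and that of NASH over Con to 1.56. APOB, the hepatocyte apolipoprotein, was present in stellate-like cells at 4.82%, 10.1% and 6.30% of its hepatocyte level in NASH-T, NASH and Con, and IGF1 at 7.84%, 12.3% and 4.67%. The part of hepatocyte RNA in these stromal levels was not tested. Fibroblast- or smooth muscle-like cells had 13 IGF1 UMIs in 2 cells in NASH-T, 3 in 3 cells in NASH and 49 in 13 cells in Con. With 62, 58 and 74 cells in that class, the 109, 26.9 and 359.9 CPM they give show only that the Con cells of this class held more IGF1 molecules.

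The receptor GHR (ENSCHIG00000018928) had by far the highest read yield of the 5 genes, and its level was highest in NASH-T hepatocyte-like cells. It was counted 138548 times in NASH-T, 157289 times in NASH and 98184 times in Con. The ratio was 1.33 (1.32 to 1.34) in NASH-T over Con, 1.16 (1.15 to 1.17) in NASH over Con and 1.15 (1.14 to 1.16) in NASH-T over NASH. All 3 ratios were below 1.5-fold, and their narrow intervals reflect the number of molecules, not the number of goats. GHR was present in 96.7% of NASH-T, 97.5% of NASH and 95.8% of Con hepatocyte-like cells, close to the ceiling of that measure.

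GHR was also found in stromal cells, and among the classes with at least 50 cells in every library its highest levels after hepatocytes were in stellate-like cells. These cells had 834 CPM (765 to 908) in NASH-T, 1065 CPM (989.9 to 1144) in NASH and 747 CPM (668 to 833) in Con. That is 9.15%, 13.4% and 10.9% of the hepatocyte level, against 4.82%, 10.1% and 6.30% for APOB. Fibroblast- or smooth muscle-like cells had 578 CPM in NASH-T, 359 CPM in NASH and 580.3 CPM in Con, and endothelial-like cells 307, 404 and 364 CPM. In NASH these last 2 classes did not differ beyond their intervals (257 to 489 and 365 to 447 CPM). T cell-like cells had 111, 129 and 84.3 CPM and macrophage-like cells 45.6, 106 and 52.4 CPM. NK-like cells had 86.8, 92.1 and 29.4 CPM and gamma-delta T cell-like cells 81.5, 88.6 and 69.3 CPM. These immune classes were all below the stromal and endothelial-like ones. Small classes were not ranked, and in every library the mixed and dividing-like ones were above stellate-like cells, with 6597, 7077 and 5097 CPM in the mixed class and 1252, 1783 and 1873 CPM in dividing-like cells of NASH-T, NASH and Con. At 1000 UMIs per cell GHR was present in 48.9%, 44.3% and 48.0% of stellate-like cells, in 24.0%, 25.4% and 26.4% of endothelial-like cells and in 8.06%, 10.3% and 6.06% of T cell-like cells. In stellate-like cells the ratio of NASH over Con was 1.43 (1.25 to 1.63) and that of NASH-T over Con 1.12 (0.971 to 1.29). APOB in these cells was also highest, relative to hepatocytes, in NASH, and its part in that ratio was not tested.

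**Figure D2:**
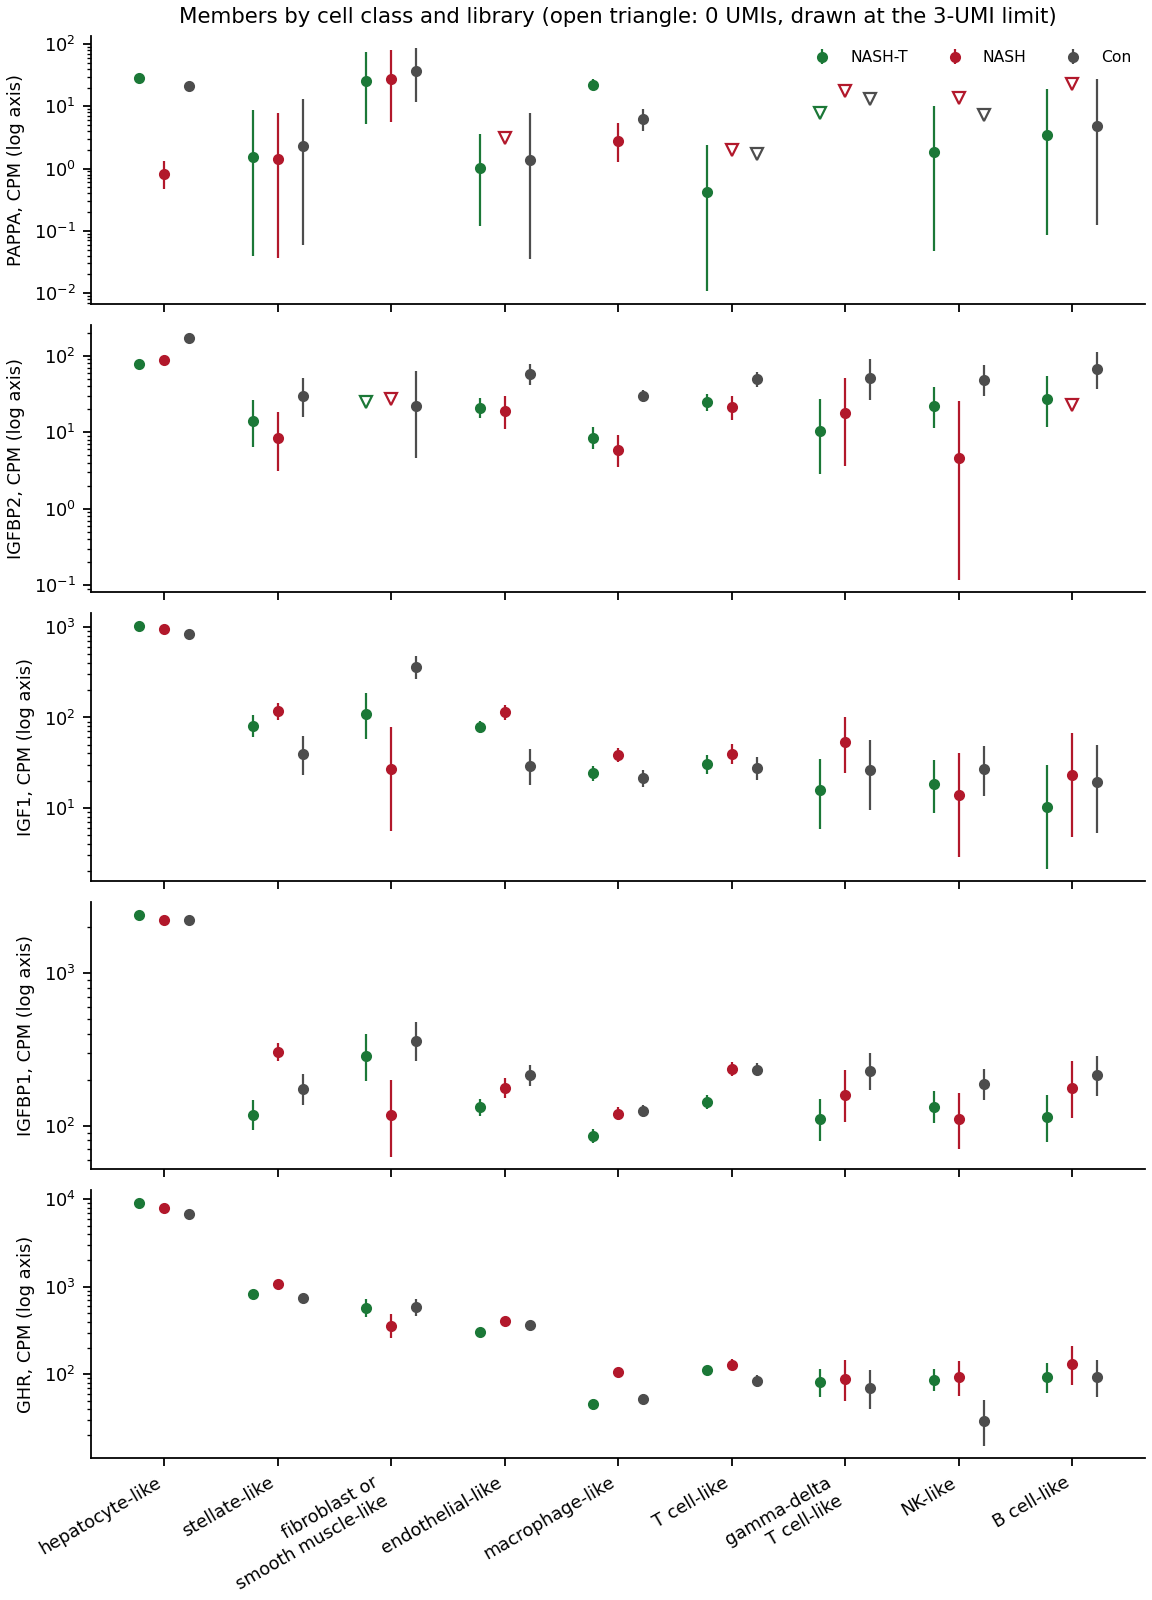
CPM (log axis) of the 5 genes, 1 panel each, in 9 cell classes of the NASH-T, NASH and Con libraries; points are 1 pooled library each, lines are 95% counting intervals and open triangles mark 0 UMIs, drawn at the level of 3 UMIs. GHR is at 747 to 1065 CPM in stellate-like cells and at 45.6 to 129 CPM in T cell-like and macrophage-like cells, while PAPPA in macrophage-like cells is at 22.4 CPM in NASH-T, 2.79 CPM in NASH and 6.21 CPM in Con.

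The binding protein IGFBP1 (ENSCHIG00000015588) had nearly the same level in all 3 hepatocyte pools. It was counted 36531 times in NASH-T, 43827 times in NASH and 31583 times in Con. The ratio was 1.09 in NASH-T over Con, 1.00 in NASH over Con and 1.09 in NASH-T over NASH. Its UMIs were found in 95.1%, 94.5% and 93.2% of hepatocyte-like cells. T cell-like cells had 144 CPM in NASH-T, 234 CPM in NASH and 233 CPM in Con. Macrophage-like and endothelial-like cells lay at or below these T cell-like levels (85.4 to 125 and 132 to 215 CPM), so IGFBP1 there was not above background. Stellate-like cells of NASH were above it, at 303 CPM (263 to 346), where APOB was at 10.1% of its hepatocyte level. Fibroblast- or smooth muscle-like cells had 285 CPM (197 to 398) of IGFBP1 in NASH-T, 117 CPM in NASH and 359.9 CPM (266 to 476) in Con, above the T cell-like level in NASH-T and Con, with APOB at 9.86%, 4.59% and 7.45% of its hepatocyte level. The part of hepatocyte RNA in these levels was not tested.

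The binding protein IGFBP2 (ENSCHIG00000025360) was lower in hepatocyte-like cells of both HRDS groups than in Con. It was counted 1179 times in NASH-T, 1759 times in NASH and 2453 times in Con. The ratio was 0.453 (0.422 to 0.486) in NASH-T over Con and 0.518 (0.487 to 0.551) in NASH over Con, against 8.62% and 11.6% of all measured genes that were at least 1.5-fold lower. Between NASH-T and NASH the ratio was 0.875 (0.812 to 0.942). Both HRDS groups thus lay close together and below Con. A cell with an IGFBP2 UMI made up 26.1% of hepatocyte-like cells in NASH-T, 27.6% in NASH and 43.1% in Con, and 7.26%, 8.69% and 16.1% at 1000 UMIs per cell. T cell-like cells gave 2.97%, 2.38% and 5.47%, and 2.10%, 1.77% and 3.66% at 1000 UMIs. Hepatocyte-like cells with 5 or more UMIs numbered 15 in NASH-T, 16 in NASH and 75 in Con, so cells with many molecules were also fewer in both HRDS groups.

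IGFBP2 was lower in both HRDS groups than in Con in the large hepatocyte clusters that the libraries shared. In the pericentral cluster led by FMO1 and LGR5 it had 89.5 CPM in NASH-T, 89.2 CPM in NASH and 154 CPM in Con. In the periportal cluster led by HAL, the histidine-degrading enzyme, it had 64.7 CPM in NASH-T, 76.5 CPM in NASH and 173 CPM in Con. A cluster of shallow cells, with a median of 898 UMIs, was marked in part by IGFBP2 itself, and single cells set its level. There it was 138 CPM in NASH-T, 589 CPM in NASH and 511 CPM in Con, from 57, 154 and 179 UMIs. The highest cell held 11 of these UMIs in NASH-T, 136 in NASH and 97 in Con. Without those cells the level was 113 CPM (82.8 to 151) in NASH-T, 80.2 CPM (47.5 to 127) in NASH and 261 CPM (207 to 323) in Con. The ratio of NASH over Con was then 0.308 (0.174 to 0.517), against 1.15 (0.923 to 1.44) with them, and that of NASH-T over Con 0.434 (0.296 to 0.630), against 0.269 (0.196 to 0.365). The clusters led by FASN and CYP7A1, mostly NASH cells, had 76.4 and 92.3 CPM in NASH, close to the NASH level in the other large clusters.

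Outside hepatocytes the IGFBP2 level was lower still in the 3 classes given here, in each of which Con was highest. T cell-like cells had 24.9, 21.3 and 49.3 CPM in NASH-T, NASH and Con, endothelial-like cells 21.1, 18.8 and 58.2 CPM and macrophage-like cells 8.49, 5.89 and 29.8 CPM. Endothelial-like cells were near the T cell-like level of their own library and macrophage-like cells below it, so these values were read as background and not as expression.

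The protease PAPPA (ENSCHIG00000016958) was the gene with the widest gap between libraries. In hepatocyte-like cells its UMIs numbered 434 in NASH-T, 16 in NASH and 307 in Con. They lay in 337 of 3118 NASH-T cells (10.8%), 16 of 4061 NASH cells (0.394%) and 255 of 2860 Con cells (8.92%). In NASH no hepatocyte-like cell had more than 1 UMI, while 84 NASH-T and 42 Con cells had 2 or more and none had over 4. In T cell-like cells 1 UMI was counted in NASH-T, in 0.0549% of cells, and 0 in NASH and Con, where 3 UMIs would give 1.99 and 1.72 CPM. The hepatocyte level in NASH was thus at or below that limit. At 1000 UMIs per cell, 2.98% of NASH-T, 0.0519% of NASH and 2.68% of Con hepatocyte-like cells had a PAPPA UMI.

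The PAPPA ratio of NASH-T over NASH was 35.4 (21.6 to 62.5), and that of NASH over Con was 0.0376 (0.0212 to 0.0621). In hepatocyte-like cells 8.19% of measured genes were at least 1.5-fold higher in NASH-T than in NASH, and PAPPA was the only one of the 5 among them. NASH-T over Con was 1.33 (1.15 to 1.55), below 1.5-fold. The PAPPA level of NASH-T lay nearer to that of Con, and the IGFBP2 level of NASH-T nearer to that of NASH. NASH-T and NASH goats shared a diet, and the cause of either pattern was not tested.

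The low PAPPA level of NASH was not limited to the clusters that NASH cells mostly filled. In the pericentral FMO1 and LGR5 cluster there were 186 UMIs in 1350 NASH-T cells, 1 in 406 NASH cells and 161 in 1510 Con cells, or 27.6, 0.504 and 21.9 CPM. In the periportal HAL cluster there were 239 UMIs in 1345 NASH-T cells, 4 in 626 NASH cells and 139 in 1061 Con cells, or 31.2, 1.16 and 21.2 CPM. Within these shared clusters the NASH library was low. NASH-T over Con was 1.26 (1.02 to 1.57) in the pericentral and 1.47 (1.19 to 1.82) in the periportal cluster, both below 1.5-fold. The FASN and CYP7A1 clusters of NASH had 8 and 3 UMIs, or 0.907 and 0.566 CPM. The shallow cluster had 6 UMIs in NASH-T, 0 in NASH and 6 in Con.

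Macrophage-like cells were the other large class with PAPPA. They had 100 UMIs in 74 cells in NASH-T, 9 in 7 cells in NASH and 25 in 18 cells in Con, or 22.4 CPM (18.2 to 27.2), 2.79 CPM (1.28 to 5.30) and 6.21 CPM (4.02 to 9.17). The NASH-T level was above both others, by 8.01-fold (4.05 to 18.0) over NASH and 3.60-fold (2.30 to 5.83) over Con. In these cells 5.02% of 8549 measured genes were at least 1.5-fold higher in NASH-T than in NASH and 3.85% of 8829 were so over Con. At 1000 UMIs per cell the ratio of NASH-T over NASH was 32.9, resting on 35 cells with a UMI in NASH-T and 1 in NASH. In Con 1 cell held 7 of the 25 UMIs, and without it the level was 4.47 CPM. APOB in macrophage-like cells was at 3.37%, 3.81% and 3.84% of its hepatocyte level, while PAPPA was at 78.3% in NASH-T and 29.0% in Con. In NASH the macrophage-like PAPPA level was above the hepatocyte level of 0.807 CPM (0.461 to 1.31), with intervals that just overlapped. The larger macrophage-like cluster, led by MSR1 and by TIMD4, a marker of resident liver macrophages, had 22.8 CPM in NASH-T, 3.25 CPM in NASH and 2.46 CPM in Con, from 86, 8 and 7 UMIs. The smaller one, led by CPM and GPNMB, had 19.9, 1.31 and 15.3 CPM, from 14, 1 and 18 UMIs. So the Con cells had PAPPA mainly in the GPNMB-led cluster, from few UMIs, while NASH-T cells had it in both. Which cluster held the Con cell with 7 UMIs is not given here.

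**Figure D3:**
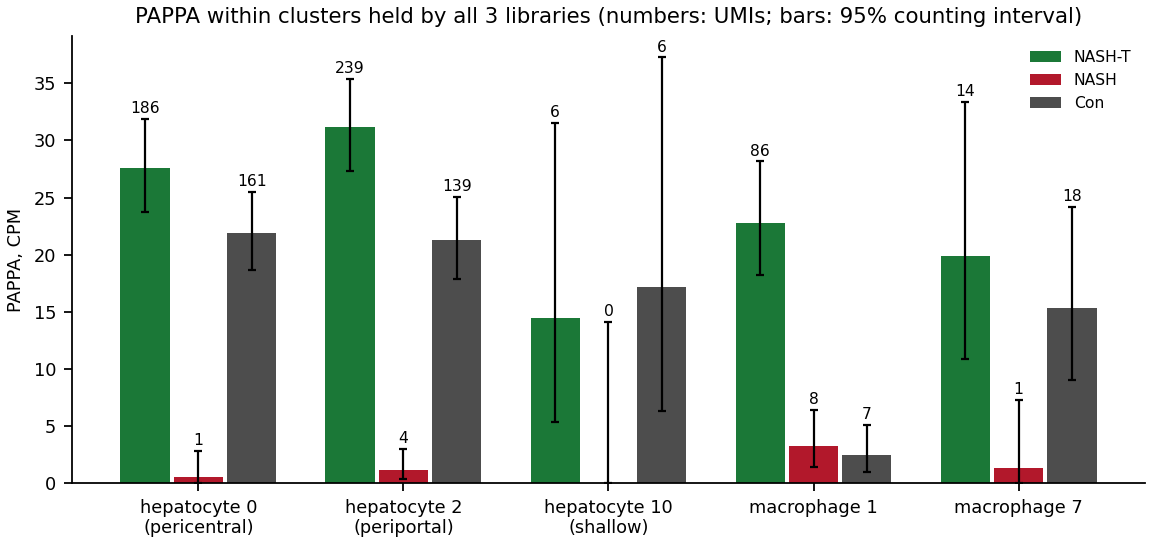
CPM of PAPPA in 3 hepatocyte-like and 2 macrophage-like clusters that hold cells of all 3 libraries, with bars for NASH-T, NASH and Con; error bars are 95% counting intervals and the numbers above are UMIs. In the pericentral cluster the bars are at 27.6, 0.504 and 21.9 CPM, and in macrophage cluster 1 at 22.8, 3.25 and 2.46 CPM.

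Stellate-like and endothelial-like cells held almost no PAPPA. Stellate-like cells had 1 UMI in each library and endothelial-like cells 2, 0 and 1. Fibroblast- or smooth muscle-like cells (human fibroblasts secrete PAPPA in culture) had 3 UMIs in NASH-T, 3 in NASH and 5 in Con, or 25.1 (5.18 to 73.4), 26.9 (5.55 to 78.7) and 36.7 (11.9 to 85.7) CPM. With so few cells these levels could not be told from each other, and it was not detectable at this depth whether the class followed the hepatocytes.

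Position along the liver lobule was read from marker genes, since hepatocytes near the portal vein and near the central vein run different programmes. In each library the hepatocyte-like cells were ordered by pericentral minus periportal marker score and divided into terciles of equal size. Of 13 periportal markers 13, 12 and 13 were higher in the periportal tercile of NASH-T, NASH and Con, and of 13 pericentral markers 12 were higher in the pericentral tercile of each. The markers chose the terciles, so this is a check and not a result. Many cells (25.7%, 24.2% and 25.5%) lay within 0.1 of a boundary, so the terciles are ranges of a score and not cell types.

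IGFBP1 was periportal in all 3 libraries, and most so in NASH. It had 2197, 1562 and 1746 CPM in the pericentral tercile of NASH-T, NASH and Con, and 2700.2, 2812 and 2715 CPM in the periportal tercile. The pericentral over periportal ratio was 0.814 (0.793 to 0.835) in NASH-T, 0.556 (0.542 to 0.569) in NASH and 0.643 (0.625 to 0.661) in Con. Between terciles, NASH-T over NASH was 1.41 pericentrally and 0.960 periportally. In the pericentral FMO1 and LGR5 cluster IGFBP1 had 2197 CPM in NASH-T, 1302 CPM in NASH and 1895 CPM in Con, a NASH-T over NASH ratio of 1.69 (1.62 to 1.76). In the periportal HAL cluster it had 2617 CPM in NASH-T, 2030.1 CPM in NASH and 2566 CPM in Con, a ratio of 1.29 (1.25 to 1.33). In both of these clusters NASH was thus lower than NASH-T, whereas by terciles it was lower pericentrally and not periportally. The FASN cluster, on the periportal side of the zone score, had 2761 CPM of IGFBP1 in its 1513 NASH cells. Of these, 850 lay in the periportal tercile, which held 1354 NASH cells. The CYP7A1 cluster, on the pericentral side, had 1732 CPM in NASH.

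GHR ran the other way in Con and was nearly even in the HRDS groups. In the pericentral tercile it had 9275 CPM in NASH-T, 8104 CPM in NASH and 7674 CPM in Con. In the periportal tercile it had 8600.5, 7394 and 5509 CPM. The pericentral over periportal ratio was 1.08 in NASH-T, 1.10 in NASH and 1.39 in Con. The gap between NASH-T and Con was therefore widest periportally, where GHR passed 1.5-fold at 1.56 (1.54 to 1.58), and was 1.21 pericentrally. In the periportal HAL cluster it was 1.47 (1.46 to 1.49), below 1.5-fold, and in the pericentral FMO1 and LGR5 cluster 1.26 (1.24 to 1.27).

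IGF1 was mildly periportal, and by terciles most clearly in NASH-T. It had 828, 877 and 786 CPM in the pericentral tercile of NASH-T, NASH and Con, and 1144, 941 and 864 CPM in the periportal tercile. The pericentral over periportal ratio was 0.723 in NASH-T, 0.932 in NASH and 0.910 in Con. NASH-T over Con was 1.32, 1.26 and 1.05 in the periportal, middle and pericentral terciles, and 1.14 in the pericentral FMO1 and LGR5 cluster. In that cluster IGF1 had 916, 712 and 805 CPM in NASH-T, NASH and Con. The periportal HAL cluster had 1126, 896 and 888 CPM. By these clusters IGF1 was thus about as periportal in NASH as in NASH-T.

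IGFBP2 had no stable zone. Its pericentral over periportal ratio was 1.43 in NASH-T, 1.40 in NASH and 0.679 in Con. A single pericentral NASH cell held 136 of the UMIs, with 12 in the next highest, and without the highest cell of each library the NASH ratio was 1.13. In Con 1 periportal cell held 97, with 25 in the next. When cells were thinned to 1000 UMIs and scored again the NASH-T ratio turned to 0.935. The lower level in the HRDS groups held in every tercile. The periportal tercile had 64.5 CPM in NASH-T, 79.7 CPM in NASH and 219 CPM in Con, the middle tercile 77.6, 77.4 and 144 CPM, and the pericentral tercile 92.0, 112 and 149 CPM.

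PAPPA was low in NASH in every tercile, and no zone was detectable at this depth in the other libraries. The periportal, middle and pericentral terciles had 28.9, 28.3 and 28.5 CPM in NASH-T, 0.145, 1.31 and 0.989 CPM in NASH, and 22.0, 24.4 and 17.5 CPM in Con. The pericentral over periportal ratio was 0.983 (0.773 to 1.25) in NASH-T and 0.795 (0.587 to 1.07) in Con, both with intervals that span 1. With the cells of the same terciles thinned to 1000 UMIs it was 1.54 (0.894 to 2.70) in NASH-T, from 36 against 24 UMIs, and the Con interval was 0.430 to 1.47, from 21 against 27 UMIs. In NASH it rested on 6 against 1 UMIs. NASH-T over Con passed 1.5-fold in the pericentral tercile alone, at 1.62 (1.22 to 2.18), and the intervals of the other terciles (1.02 to 1.70 and 0.906 to 1.49) overlapped it. The shared clusters had the other order, again with overlapping intervals. There the ratio was 1.26 (1.02 to 1.57) in the pericentral FMO1 and LGR5 cluster and 1.47 (1.19 to 1.82) in the periportal HAL cluster.

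**Figure D4:**
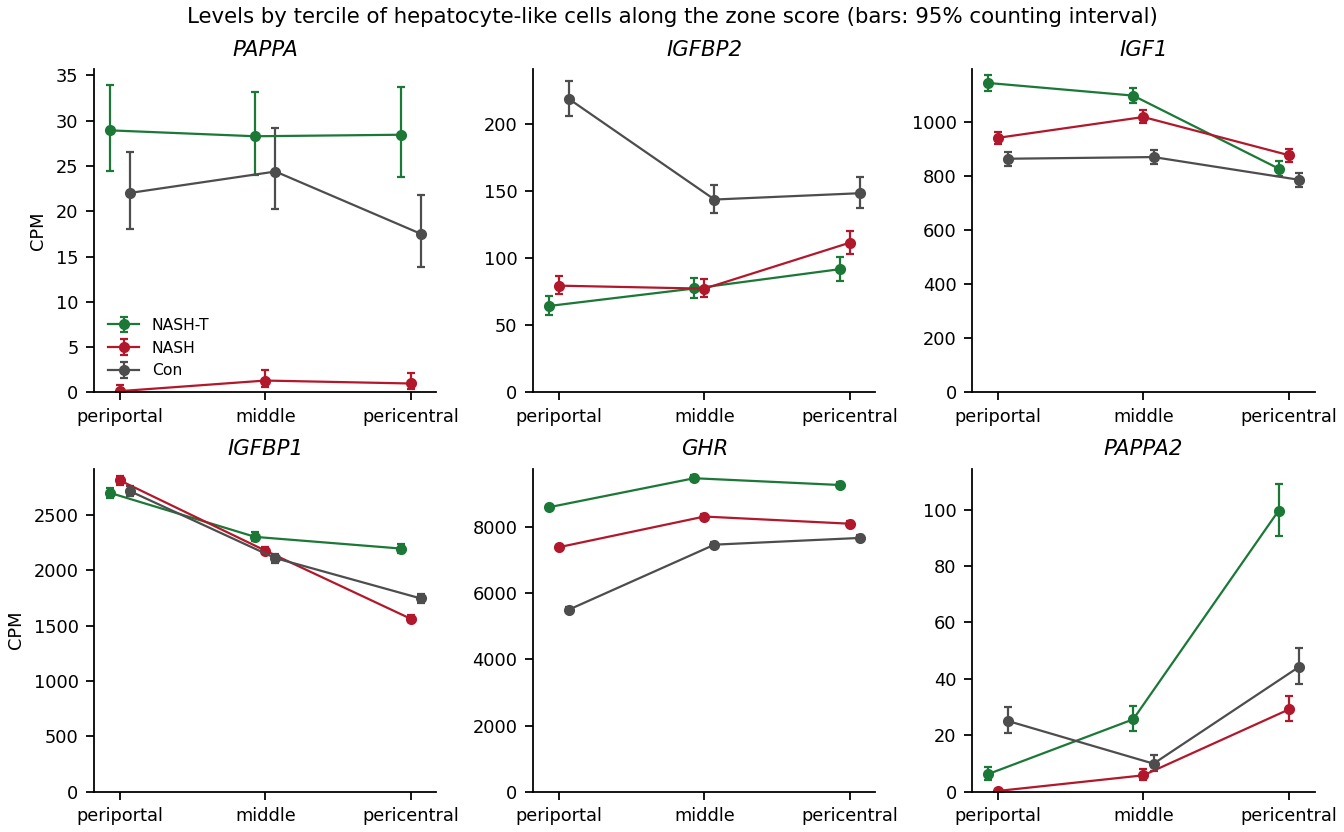
CPM of the 5 genes and of PAPPA2 in the periportal, middle and pericentral terciles of hepatocyte-like cells, with lines for NASH-T, NASH and Con and 95% counting intervals; each axis starts at 0. PAPPA is at 28.3 to 28.9 CPM in NASH-T, and GHR in Con is at 7674 CPM pericentrally and 5509 CPM periportally.

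The rest of the axis was read from a list of 70 genes in hepatocyte-like cells, chosen with results of these cells known. Of these, 6 were not in the gene list and 47 had enough UMIs, the 5 genes above included. Of the other 42, 3 were at least 1.5-fold higher and 4 lower in NASH-T over Con, with a median log2 ratio of -0.17 against -0.10 over all genes. In NASH over Con 1 was higher and 6 lower (median -0.21, against -0.12), and in NASH-T over NASH 6 were higher and 1 lower. For all genes the shares higher and lower were 4.97% and 8.62% in NASH-T over Con, 5.8% and 11.6% in NASH over Con, and 8.19% and 5.4% in NASH-T over NASH.

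Among the proteases, PAPPA2 and ADAM12 were also lowest in NASH. PAPPA2, the paralog of PAPPA that cuts IGFBP3 and IGFBP5, had 42.0 CPM in NASH-T, 11.0 CPM in NASH and 25.8 CPM in Con, from 638, 219 and 370 UMIs. Its ratio was 3.80 (3.26 to 4.45) in NASH-T over NASH, 0.427 (0.360 to 0.507) in NASH over Con and 1.63 (1.43 to 1.85) in NASH-T over Con. Unlike PAPPA it was highest in the pericentral tercile of every library. That tercile had 99.6 CPM in NASH-T, 29.2 CPM in NASH and 44.2 CPM in Con. The middle tercile had 25.7, 5.83 and 9.96 CPM. The periportal tercile had 6.22, 0.290 and 25.1 CPM, from 32, 2 and 124 UMIs. In Con the middle tercile was thus the lowest. So PAPPA2 of NASH-T exceeded Con pericentrally and lay below it periportally. ADAM12, a metalloprotease that can cut IGFBP3 and IGFBP5, had 3.95 CPM in NASH-T, 1.01 CPM in NASH and 7.89 CPM in Con, from 60, 20 and 113 UMIs. Its main site was the endothelial-like class, with 156, 457 and 253 CPM, where NASH was highest. T cell-like cells had 0.842, 0 and 1.72 CPM of ADAM12 in NASH-T, NASH and Con, from 2, 0 and 3 UMIs, so its NASH hepatocyte level lay near background. STC2, an inhibitor of PAPPA, had 1 UMI in NASH-T hepatocyte-like cells and 0 in NASH and Con. IGFBP4, the substrate of PAPPA, had 40.4 CPM in NASH-T, 41.5 CPM in NASH and 41.5 CPM in Con, without a gap between libraries.

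In growth hormone signalling, SOCS2 was lower in both HRDS groups. SOCS2, a feedback inhibitor of GHR that growth hormone induces through STAT5, had 3.82 CPM in NASH-T, 4.59 CPM in NASH and 16.1 CPM in Con, from 58, 91 and 230 UMIs. The ratio was 0.238 (0.175 to 0.318) in NASH-T over Con and 0.286 (0.222 to 0.366) in NASH over Con, while NASH-T over NASH was 0.832 (0.588 to 1.17). The gap held in each tercile, with 2.97, 5.77 and 15.5 CPM of SOCS2 pericentrally and 4.27, 3.91 and 15.2 CPM periportally in NASH-T, NASH and Con. T cell-like cells had 0, 2.66 and 1.15 CPM of SOCS2, so its NASH hepatocyte level lay near background. CISH, another STAT5 target, had 9, 11 and 18 UMIs, too few to compare, and SOCS3 had 12, 37 and 12. The kinase JAK2 had 208, 240.4 and 203 CPM and the transcription factor STAT5B 26.8, 31.0 and 37.6 CPM in NASH-T, NASH and Con, all within 1.5-fold. BCL6, a repressor known in mouse liver to sit at STAT5 sites, was highest in NASH-T, with 34.5 CPM against 15.2 CPM in NASH and 18.0 CPM in Con. Its ratio was 2.26 (1.96 to 2.62) in NASH-T over NASH and 1.91 (1.65 to 2.23) in NASH-T over Con.

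Of the insulin-side and stress genes, 3 were at least 2-fold apart. PDK4, a pyruvate dehydrogenase kinase of the fasted state, had 313 CPM in NASH-T, 140.3 CPM in NASH and 177 CPM in Con. TRIB1, a pseudokinase linked to blood lipids, had 44.6 CPM in NASH-T, 21.5 CPM in NASH and 45.6 CPM in Con, so NASH alone was low. FGF21, a liver hormone that in mice dampens growth hormone action, had 29.5 CPM in NASH-T, 48.6 CPM in NASH and 23.3 CPM in Con, so NASH alone was high. The ratio of NASH over Con was 2.09 (1.84 to 2.38) for FGF21 and 0.471 (0.416 to 0.533) for TRIB1.

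**Figure D5:**
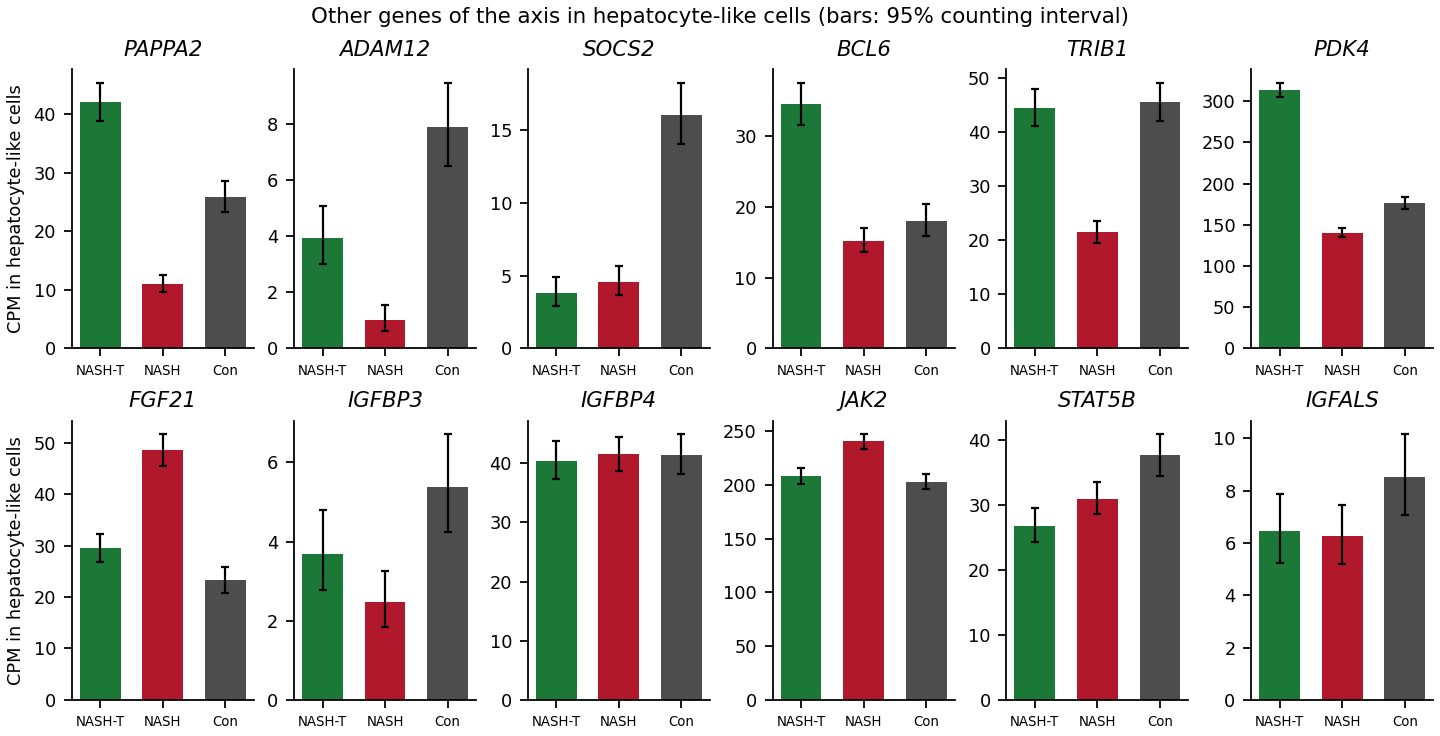
CPM of 12 further genes of the axis in hepatocyte-like cells of NASH-T, NASH and Con, 1 panel per gene with its own axis from 0 and 95% counting intervals. PAPPA2, ADAM12 and TRIB1 are lowest in NASH (11.0, 1.01 and 21.5 CPM), SOCS2 is highest in Con (16.1 CPM), and IGFBP4 is level at 40.4 to 41.5 CPM.

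The circulating partners of IGF1 were scarce in hepatocytes, and the IGF receptor lay in other cells. IGFALS, the acid-labile subunit of the ternary complex, had 6.45 CPM in NASH-T, 6.25 CPM in NASH and 8.52 CPM in Con, and the second ligand IGF2 had 3.49, 3.43 and 4.26 CPM. IGFBP3, the main carrier of IGF in blood, had 3.69, 2.47 and 5.38 CPM in hepatocyte-like cells, where the T cell-like level was 4.63, 3.99 and 3.44 CPM. Its hepatocyte level was thus not above background in NASH-T and NASH. In Con it was slightly higher than a T cell-like level that rested on few UMIs, so it was not shown to exceed background. Stellate-like cells had 104, 61.1 and 64.7 CPM of IGFBP3 in NASH-T, NASH and Con. IGF1R had 2.70, 2.67 and 4.19 CPM in hepatocyte-like cells, against 1008, 927 and 997 CPM in stellate-like cells, 628, 574 and 764 CPM in fibroblast- or smooth muscle-like cells and 436, 429 and 507 CPM in endothelial-like cells. Ligand and receptor were thus highest in different classes, IGF1 in hepatocyte-like and IGF1R in stellate-like cells, and the IGF1R level of stellate-like cells was within 1.5-fold over the libraries.

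The genes whose levels followed each of the 5 most closely were ranked by Pearson correlation of log2(CPM + 10) over 33 profiles, which are the classes and hepatocyte terciles of the 3 libraries. The profiles share libraries and depth, so the values describe likeness only. Nearest to PAPPA among 9889 genes were FBN2 (0.868), KCP (0.812) and UGP2 (0.806). Nearest to IGFBP2 were ICE2 (0.883), ITIH1 (0.876) and NMRAL1 (0.868). Among the genes nearest to IGF1 were SDC2 (0.967) and SLC16A7 (0.965), and IGFBP1 was nearest to ALDH1L1 (0.983), PCK1 (0.981) and HAO2 (0.981). GHR was nearest to SLC16A7 (0.973), SORBS2 (0.973) and SERPING1 (0.970). Over these 33 profiles PAPPA and IGFBP2 had lower values than IGF1, IGFBP1 and GHR. Over the 9 hepatocyte tercile profiles alone other genes were nearest, BHMT (0.995) to PAPPA, SLC16A10 (0.982) to IGFBP2, TMEM19 (0.942) to IGF1, ART3 (0.965) to IGFBP1 and MCTP2 (0.974) to GHR.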

How the data were processed

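Liver tissue was digested with trypsin, and libraries were made with a 10x 3′ kit, per the labels' protocols. The deposited values are UMI counts per gene and cell, which the authors made with Cell Ranger 7.0.0, per the submitters' processing notes. Neither the genome build nor the counting of intronic reads is given in the sources used here. A cell had to have 200 genes and 500 UMIs or more, and no more than 20% mitochondrial UMIs. This left out 2, 0 and 1 barcodes of NASH-T, NASH and Con, and Scrublet (in scanpy 1.11.5, expected rate 0.06) removed 459, 342 and 284 as doublets.

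Cells of the 3 libraries were clustered together (2000 variable genes without the 5 genes and their axis list, 30 principal components, 15 neighbours, Leiden resolution 0.8). Clusters were named from fixed marker lists, and the rule for mixed clusters was set after the clusters were seen. Counts were summed per class and library and divided by the class total. Ratios have exact conditional binomial intervals. With 1 library per group no test was run. The ratio code was checked on simulated counts. The 5 genes and all lists were chosen with earlier results of these data known. Named besides them are axis genes at least 2-fold apart with 50 UMIs or more, a fixed set of axis genes whatever their values, and for each of the 5 the 3 nearest genes, of which 1 is not reported here. Neighbouring genes come from RefSeq ARS1.2. Python 3.11.15, numpy 2.4.6, pandas 2.3.3 and scipy 1.17.1 were used.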

Additional observations from a re-analysis of the deposited data

How the results depend on the processing

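No paired analysis was possible because each group had 1 library. The ratios between libraries were computed under 10 alternatives. Some of them were chosen after seeing the data (subtracting the T cell-like UMIs per cell, and leaving out the highest cell of each library). So was the use of clusters in place of terciles, which applied only to the pericentral over periportal ratios. Under the 10 alternatives the PAPPA and IGFBP2 ratios called in hepatocyte-like cells kept their side of 1 and stayed past 1.5-fold. PAPPA ranged over 0.0191 to 0.0408 for NASH over Con and 33.2 to 59.4 for NASH-T over NASH. The lowest value, 0.0191, came from thinning to 1000 UMIs per cell. IGFBP2 in NASH-T over Con was 0.420 after thinning and 0.486 after scaling by the median ratio. IGFBP2 in NASH over Con was 0.465 as a mean of per-cell CPM, 0.609 in shared hepatocyte clusters only, 0.561 after scaling and 0.553 with the T cell-like CPM subtracted. IGF1 and IGFBP1 in NASH over Con fell below 1 in the shared clusters (0.985 and 0.818). The counts of called genes among the 5 did not move. In the shallow hepatocyte cluster IGFBP2 in NASH-T over NASH reversed to 1.41 (0.802 to 2.58) without the highest cell of each library, against 0.234 with it, since 1 cell held most of the NASH UMIs.

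The pericentral over periportal ratio of IGFBP2 in NASH-T reversed to 0.935 after thinning and scoring again. In NASH it was 1.13 without the highest cell of each library and 1.20 with clusters in place of terciles, and in Con 0.893 with clusters. That of IGFBP1 was 0.881, 0.600 and 0.703 in NASH-T, NASH and Con after thinning, and 0.632 in NASH and 0.740 in Con with clusters. With no minimum beyond 1 UMI in each library, the other axis genes numbered 6 higher and 10 lower in NASH-T over Con, 3 higher and 11 lower in NASH over Con, and 10 higher and 3 lower in NASH-T over NASH, since more genes of few UMIs are then counted. After scaling they numbered 3 higher and 2 lower in NASH-T over Con, and 2 higher and 5 lower in NASH over Con. The cause of the other moves was not tested. With 1 pooled library per group, differences between goats, pools and digestions cannot be told apart from differences between groups. The 16 UMIs of PAPPA in NASH hepatocyte-like cells, and fewer in each stromal class, limit those levels.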

Other observations

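GH1, the gene of growth hormone itself, is made in the pituitary and was near 0 in most liver classes, but its row held UMIs in B cell-like cells. There GH1 had 68 UMIs in 59 NASH-T cells, 25 in 22 NASH cells and 38 in 28 Con cells, or 233 CPM (181 to 295), 193 CPM (125 to 284) and 185 CPM (131 to 253). In hepatocyte-like cells GH1 had 7, 7 and 14 UMIs, or 0.461, 0.353 and 0.978 CPM. The next protein-coding gene after GH1 in RefSeq ARS1.2 is CD79B, which encodes a chain of the B cell receptor. GH1 was picked here after its values were seen.

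STC1, a glycoprotein that inhibits PAPPA and PAPPA2, was found mainly in endothelial-like cells. It had 86.9 CPM (74.4 to 101) in NASH-T, 81.3 CPM (64.3 to 101) in NASH and 70.6 CPM (52.6 to 92.8) in Con. The intervals overlapped, so no gap between libraries was detectable at this depth. IGFBP7, a matrix binding protein with low affinity for IGF, was highest in fibroblast- or smooth muscle-like cells, with 1750.2 CPM in NASH-T, 1355 CPM in NASH and 1366 CPM in Con. Stellate-like cells had 713, 606 and 594 CPM of IGFBP7. Both genes were also named after their values were seen.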
